A study of Mus musculus with 2 samples.

Results

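The 8 genes examined encode accessory proteins of the sarcomere's thick filament: the myosin-binding protein C genes Mybpc1, Mybpc2 and Mybpc3, the myosin-binding protein H genes Mybph and Mybphl, and the myomesin genes Myom1, Myom2 and Myom3. They were chosen by name, as 2 protein families, and not by any measured value, though earlier results of these data were known. They are 8 of the 55536 annotated genes in the gene tables. The measurement was total RNA-seq of gastrocnemius, a calf muscle made mostly of fast fibres, in female B6CASTF1/J mice aged 14 days. B6CASTF1/J animals are first-generation hybrids of C57BL/6J and CAST/EiJ, and no transgene, treatment or other genotype is named. There were 2 libraries, replicates 1 and 2 of 1 group, so no condition was compared with another. The labels call them biological replicates, but whether a library came from 1 animal or from a pool of 3 females is not clear from them. The spread between the libraries may therefore be technical as well as between animals, and no p-value across animals can be computed from 1 library on each side.

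Myosin-binding protein C lies in regular stripes along the thick filament, where its immunoglobulin and fibronectin domains bind the myosin rod and titin and its N-terminal part reaches towards the myosin heads and actin. Mybpc1 encodes the slow skeletal form, Mybpc2 the fast skeletal form and Mybpc3 the cardiac form, and myosin-binding protein H is a shorter relative that shares the C-terminal domains. Myomesins cross-link the thick filaments at the M-band in the middle of the sarcomere, where they also bind titin. In adult rodent muscle Myom1 is made in all striated fibres, Myom2 (M-protein) mainly in fast fibres and heart, and Myom3 mainly in fibres of intermediate speed.

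The regulatory sequence just ahead of the 3 C-protein genes is shown first, because their RNA levels, given below, ranged from among the highest in this muscle to a handful of reads. Each is the 250 bases before the start of the RefSeq gene on GRCm38.p6, the same assembly as mm10, read 5′ to 3′ on the gene's strand. These are C57BL/6J letters; the CAST/EiJ alleles that these hybrids also carry are not shown. Capitals mark E-boxes (CANNTG, the letters bound by MyoD and its relatives) and the MEF2 consensus, the site of another muscle transcription factor. The Mybpc2 stretch is chr7:44524670-44524919, minus strand, the Mybpc1 stretch chr10:88605153-88605402, minus strand, and the Mybpc3 stretch chr2:91117894-91118143, plus strand.
Mybpc2: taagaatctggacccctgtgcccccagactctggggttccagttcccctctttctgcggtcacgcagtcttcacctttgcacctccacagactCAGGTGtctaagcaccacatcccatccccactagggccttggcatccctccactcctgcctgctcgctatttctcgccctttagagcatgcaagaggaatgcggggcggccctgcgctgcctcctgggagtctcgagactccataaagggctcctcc
Mybpc1: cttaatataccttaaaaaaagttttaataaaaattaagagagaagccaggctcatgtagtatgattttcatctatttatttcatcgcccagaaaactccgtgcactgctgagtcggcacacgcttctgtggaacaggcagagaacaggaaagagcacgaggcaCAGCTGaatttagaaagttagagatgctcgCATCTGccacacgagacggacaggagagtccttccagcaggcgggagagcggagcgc
Mybpc3: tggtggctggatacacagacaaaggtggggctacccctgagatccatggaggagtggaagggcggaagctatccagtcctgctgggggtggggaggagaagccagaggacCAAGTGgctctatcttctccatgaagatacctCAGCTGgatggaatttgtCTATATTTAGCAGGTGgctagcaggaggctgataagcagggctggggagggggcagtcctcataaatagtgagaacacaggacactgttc

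Of the 8 genes, 7 were found among the RefSeq promoters, Myom2 being the exception. An E-box, searched on both strands (the letters read the same on either), was present ahead of 6 of the 7, all but Mybphl, against 66.2% of 32536 mouse promoters of the same length. The MEF2 consensus, searched on both strands, was present ahead of 2 of the 7, against 2.89% of promoters. In Mybpc3 it lies 90 to 81 bases before the start and directly abuts an E-box. In Myom3 it lies 35 to 26 bases before the start, in the following 30 bases of chr4:135759670-135759699, plus strand, where capitals mark the match.
Myom3: ctcagcgctgCTATATTTAAgacggttaca

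The letters TATAAA, searched on both strands, were found ahead of 1 of the 7, Mybph, at 39 to 34 bases before the start, against 12.3% of promoters. That match is on the strand opposite the gene, and the gene's own strand reads TTTATA there. The MEF2 match was thus present ahead of 1 gene with almost no reads, Mybpc3, and 1 at a moderate level, Myom3, and absent ahead of Mybpc2 and Mybpc1. A match is a run of letters only, and binding was not measured here.

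Expected counts, which can divide a read among features, summed to 35877882 for replicate 1 and 42423031 for replicate 2. Fast-fibre genes set the character of the tissue: the 11 genes of a fast-fibre list summed to 88554 and 93225 TPM, against 1818 and 2953 TPM for 10 slow-fibre genes. TPM is abundance per transcript length, scaled to a fixed sum. Of 9 heart genes, Nppa, Nppb, Myl7 and Nkx2-5, which mark heart muscle cells, were listed at 0 in both libraries, and 2 reached 1 TPM in both. Those were Myh6, the alpha-cardiac heavy chain, at 63.2 and 104 TPM, and Tnnt2 at 9.31 and 13.6 TPM. Tnnt2 is cardiac troponin T, which developing skeletal muscle also makes. The Myh6 level depended on the quantification. A second one, made by the authors directly from the reads, gave Myh6 33.39 and 46.98 TPM, while Tnnt2 was higher there in both libraries. The expected counts of Myh6, 2443.23 and 4923.8, were not whole numbers. Whether they held reads of other heavy chain genes was not tested. The red-cell genes were lower in replicate 2, at a summed 2051 against 1042 TPM, and the Schwann-cell genes higher, at 130 against 368 TPM. In such bulk RNA, fewer cells of a type and less RNA per cell cannot be told apart.

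Of the 8 genes, 6 reached 1 TPM in both libraries, and Mybphl and Mybpc3 did not. Mybpc2, the fast C-protein gene, stood far above the others. Its level was 1930 TPM in replicate 1 and 1950 TPM in replicate 2 (1940 ± 14.1, mean ± SD, n = 2), from 190642 and 222602 counts, which made it the 23rd highest of the nuclear protein-coding genes by mean TPM. Mybpc2 is a gene of chromosome 7, 44501699 to 44524656, minus strand of mm10. The slow gene Mybpc1 (chromosome 10, 88518279 to 88605152, minus strand) followed at 743 and 630 TPM (686 ± 80.1, n = 2), from 66111 and 64901 counts, at rank 60. For Mybpc1 the libraries lay further apart than for Mybpc2, with replicate 1 the higher, and the levels of the 2 genes did not overlap.

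The cardiac gene Mybpc3 (chromosome 2, 91118144 to 91136516, plus strand) had 3 counts in replicate 1 and 2 in replicate 2, or 0.03 and 0.02 TPM. Cardiac C-protein RNA was therefore at the edge of detection, in libraries that held at least 64901 counts of both Mybpc1 and Mybpc2. Of the summed TPM of the 3 C-protein genes, Mybpc2 held 72.2% and 75.6% (73.9% ± 2.40, n = 2) and Mybpc1 27.8% and 24.4%. By the second quantification, which the authors made directly from the reads, Mybpc2 stood at 2316 TPM in each library and Mybpc1 at 880 and 732 TPM, and the Mybpc2 share was 74.2% ± 2.48 (n = 2). Set against heavy chain, the 3 C-protein genes summed to 17.3 and 16.5 TPM per 100 TPM of 6 sarcomeric myosin heavy chain genes (Myh1, Myh2, Myh3, Myh4, Myh7 and Myh8). The slow heavy chain Myh7 alone made up 1.87 and 3.38 of those 100 in the gene tables and 1.21 and 2.22 in the direct quantification. The slow form's portion of the C-proteins was thus larger in both libraries than the slow heavy chain's portion of the heavy chains, and the 2 portions differed between the libraries in opposite directions. The name of a form does not give the fibres that made its RNA here, which were not measured.

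Mybph, the skeletal H-protein gene (chromosome 1, 134193448 to 134201232, plus strand), stood at 371 and 349 TPM (360 ± 15.4, n = 2), from 18175 and 19749 counts, at rank 147. That is 2.40 and 2.24 TPM per 100 of the 6 heavy chains, and Mybpc2 was 5.20-fold and 5.58-fold higher than Mybph. Mybphl, the relative known from the atria and conduction system of the heart (chromosome 3, 108364911 to 108380057, plus strand), had 2 and 5 counts, or 0.06 and 0.13 TPM. Mybpc3 and Mybphl, the 2 of the 8 genes known mainly from heart, were thus near 0, and their deposited intervals overlapped in both libraries, so the order of these 2 was not resolved.

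Myom1 (chromosome 17, 71002633 to 71126856, plus strand) and Myom2 (chromosome 8, 15057653 to 15133541, plus strand) were close to each other. Myom1 stood at 498 and 496 TPM (497 ± 1.56, n = 2), from 56045 and 64601 counts. Myom2 stood at 482 and 468 TPM (475 ± 9.89, n = 2), from 65538 and 73531 counts. Their ranks were 87 and 97. The deposited intervals of Myom1 and Myom2, whose level is not given in the sources used here, overlapped in replicate 1 and not in replicate 2. The third gene, Myom3 (chromosome 4, 135759715 to 135815564, plus strand), was far lower at 29.3 and 37.4 TPM (33.4 ± 5.69, n = 2), from 3977 and 5962 counts. Myom2 exceeded Myom3 16.4-fold and 12.5-fold, and Myom3 held 2.91% and 3.74% of the summed myomesin TPM.

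The order was therefore Mybpc2, Mybpc1, Myom1, Myom2, Mybph, Myom3, Mybphl and Mybpc3 in each library. Deposited intervals separated 5 of the 7 neighbouring pairs in both libraries, the exceptions being Myom1 with Myom2 and Mybphl with Mybpc3. The intervals go with the posterior mean TPM, so the TPM given here can lie outside them. Mybpc2 in replicate 1, for example, had 1930 TPM and an interval of 1876 to 1893. The Myom1 and Myom2 order turned with the quantification: in the direct one Myom2 was the higher, at 600 and 578 TPM against 516 and 510 TPM for Myom1. Myom2 held 47.2% ± 0.713 of the summed myomesin TPM (n = 2) in the gene tables and 51.6% ± 0.740 in the direct quantification. In the gene tables the 3 myomesins together stood at 1009 and 1001 TPM, or 51.4 and 49.0 TPM per 100 TPM of titin (Ttn), and at 6.54 and 6.41 per 100 of the 6 heavy chains. The direct quantification gave 63.2 and 59.1 per 100 of titin and 5.61 and 5.69 per 100 of the heavy chains. All 8 genes lie on different chromosomes, and the deposited posterior standard deviation of the gene count was 0 for each in both libraries, so no uncertainty in assigning reads to these genes was recorded.

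**Figure D1:**
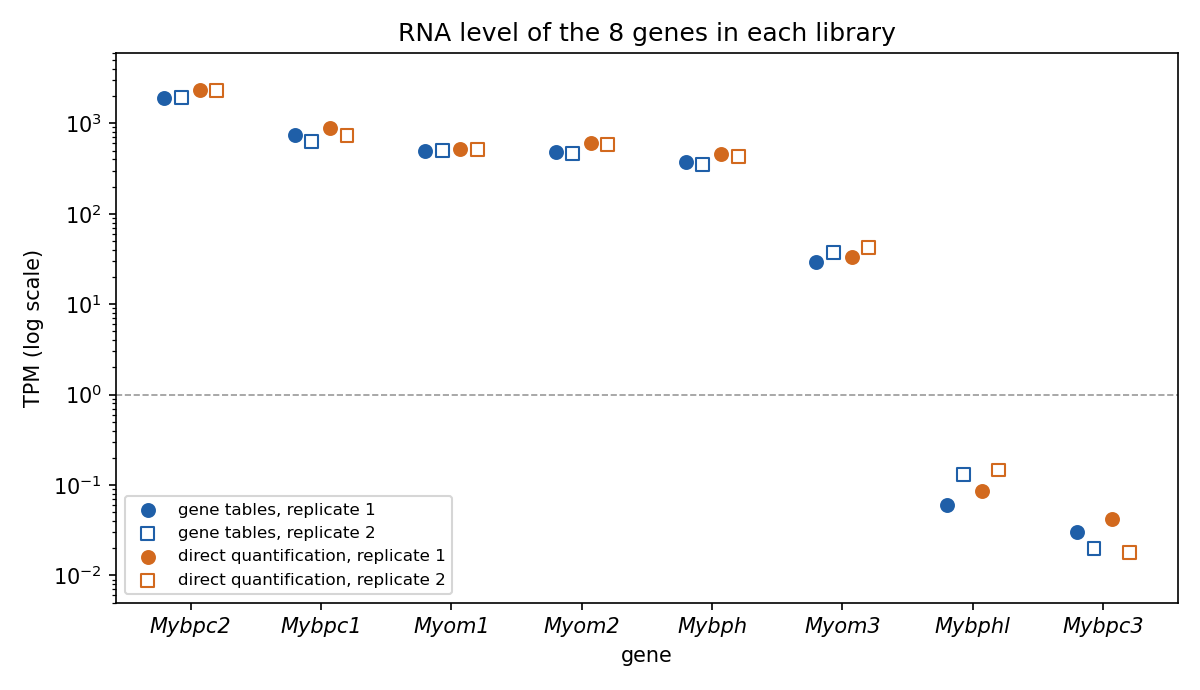
TPM (log axis) of each gene in replicate 1 (filled circles) and replicate 2 (open squares), in the gene tables (blue) and the direct quantification (orange); the dashed line is 1 TPM. Mybpc2 is highest at 1930 and 1950 TPM in the gene tables, Myom3 sits between 29.3 and 37.4 TPM, Mybphl and Mybpc3 lie below 1 TPM, and Myom1 and Myom2 change order between the quantifications.

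The 8 genes have 31 annotated transcripts, of which 18 are protein-coding and 13 are retained-intron or non-coding processed transcripts. A portion of Myom1 TPM, 27.6% and 27.3% in the gene tables, was assigned to Myom1-208, a non-coding processed transcript of 941 bases at the 3′ end of the gene, at 138 and 136 TPM. It has 4 exons, of which 3 are shared with the coding Myom1-203, and 860 of its bases are shared. Its reads made up 5.81% and 5.75% of the Myom1 counts, a smaller portion than of TPM, which divides counts by length. The direct quantification gave this transcript 0.0443 and 0.597 TPM. With protein-coding transcripts alone, Myom1 stood at 353 and 355 TPM and Myom2 at 463 and 450 TPM in the gene tables, so Myom2 was higher in both libraries. This count of coding transcripts was chosen after the values were seen.

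The leading transcript of Myom1 was Myom1-203, with 63.7% and 65.0% of the gene in the gene tables and 64.2% and 65.7% in the direct quantification. Myom1-201 held 1.37% and 2.66% in the gene tables but 17.0% and 18.7% in the direct quantification. In Myom1-203 a 23-base exon (chr17:71121126-71121148, plus strand) stands where Myom1-201 uses another 23-base exon (chr17:71120794-71120816, plus strand) further upstream. Both are shown with 10 bases of the neighbouring exons on each side, from the GENCODE M21 transcripts, with the alternative exon in capitals.
Myom1-203 form: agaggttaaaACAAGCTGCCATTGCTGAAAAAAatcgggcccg
Myom1-201 form: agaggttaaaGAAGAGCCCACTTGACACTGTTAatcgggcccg

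The 2 exons have the same length and share 6 of 23 positions, counted base by base from the 5′ end. The downstream exon was carried by 98.1% and 96.3% of full-length coding Myom1 transcripts in the gene tables and by 81.3% and 79.4% in the direct quantification. Both quantifications put the downstream exon first, but the size of the minor form differed between them far more than between the libraries.

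A second choice in Myom1 is the exon of the EH form, a segment known from embryonic heart and from slow fibres that inserts a flexible stretch into the middle of the protein. It is 294 bases, or 98 codons, and is exon 18 of the 38 exons of Myom1-202 (chr17:71082203-71082496, plus strand). Among the full-length coding transcripts, Myom1-202 alone holds it. The exon is printed here with 3 bases of each neighbouring exon in lower case. Myom1-202 was singled out after its values were seen.
Myom1 EH exon: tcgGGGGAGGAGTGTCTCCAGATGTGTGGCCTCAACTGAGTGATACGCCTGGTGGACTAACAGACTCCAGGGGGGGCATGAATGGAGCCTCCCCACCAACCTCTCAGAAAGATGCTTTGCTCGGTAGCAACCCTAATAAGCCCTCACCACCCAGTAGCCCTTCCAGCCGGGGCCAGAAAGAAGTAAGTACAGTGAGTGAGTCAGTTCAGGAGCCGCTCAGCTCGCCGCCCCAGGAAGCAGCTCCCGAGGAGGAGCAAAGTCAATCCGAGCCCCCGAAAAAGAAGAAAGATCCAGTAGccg

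Full-length coding Myom1 transcripts with the EH exon made up 8.16% and 5.29% in the gene tables (6.72% ± 2.03, n = 2) and 10.6% and 7.18% in the direct quantification. Myom1-202 itself stood at 28.8 and 18.7 TPM, with deposited intervals of 23.8 to 30.4 and 15.2 to 20.7 TPM that did not overlap. The exon was therefore in a minor part of full-length coding Myom1 RNA in both libraries, and in a larger part in replicate 1. The non-coding models Myom1-204 and Myom1-205 also span its place. They are left out of these shares, and whether their reads held the exon was not tested.

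Mybpc1 was split between 2 coding transcripts. Mybpc1-202 held 50.7% and 48.1% of the gene and Mybpc1-201 28.9% and 31.6% in the gene tables, against 63.5% and 58.9% and 23.8% and 29.0% in the direct quantification. Mybpc1-202 carries a 42-base exon near the 5′ end (14 codons, exon 3 of 29, chr10:88582007-88582048, minus strand) that Mybpc1-201 lacks. Mybpc1-201 carries a 59-base exon near the 3′ end (exon 27 of 29, chr10:88521277-88521335, minus strand) that Mybpc1-202 lacks. Both exons are coding, and are shown in capitals with 10 bases of each neighbouring exon. The 2 transcripts also differ in their ends. The first exon has 252 bases in Mybpc1-202 and 125 in Mybpc1-201, and the last 291 and 231.
Mybpc1 5′ exon: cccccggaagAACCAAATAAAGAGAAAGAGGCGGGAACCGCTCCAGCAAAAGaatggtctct
Mybpc1 3′ exon: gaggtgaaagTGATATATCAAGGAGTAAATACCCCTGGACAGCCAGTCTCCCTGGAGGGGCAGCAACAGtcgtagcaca

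Of full-length coding Mybpc1 transcripts, 63.7% and 60.4% held the 5′ exon and 36.3% and 39.6% the 3′ exon in the gene tables. The direct quantification gave 72.8% and 67.0% for the 5′ exon and 27.2% and 33.0% for the 3′ exon. In both quantifications the 5′ exon form led in each library and its portion was larger in replicate 1. Only 2 full-length models exist, so the 2 exons are tied to each other by the annotation and their joint use in 1 molecule was not measured. The shares are those of whole models, which also differ at their ends, and use of each exon by itself was not measured. The coding stretches are of 3372 bases for Mybpc1-202 and 3381 bases for Mybpc1-201. Retained-intron models held 15.9% and 15.4% of Mybpc1 in the gene tables and 6.28% and 4.46% in the direct quantification.

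The other genes each had 1 main form. All of Mybpc2 was assigned to Mybpc2-201, of 3611 bases and 28 exons. Mybph-201 held 97.5% and 97.9% of Mybph, and Mybph-202, with the same 1449 coding bases and another 3′ part, the rest. Myom2-201 held 96.1% and 96.3% of Myom2 in the gene tables and 94.1% and 93.7% in the direct quantification. Myom3-201 held 78.3% and 81.3% of Myom3, and the retained-intron model Myom3-203 21.7% and 18.2%, which the direct quantification put at 5.57% and 3.95%. The single Mybphl transcript, Mybphl-201, and Mybpc3-202 held all of the few reads of their genes in the gene tables. The leading transcript was the same in both libraries and both quantifications for all 8 genes. For Mybphl, with 1 annotated transcript, it could not have differed. For Mybpc3 the deposited intervals of its 3 transcripts overlapped in both libraries, so its lead was not resolved.

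**Figure D2:**
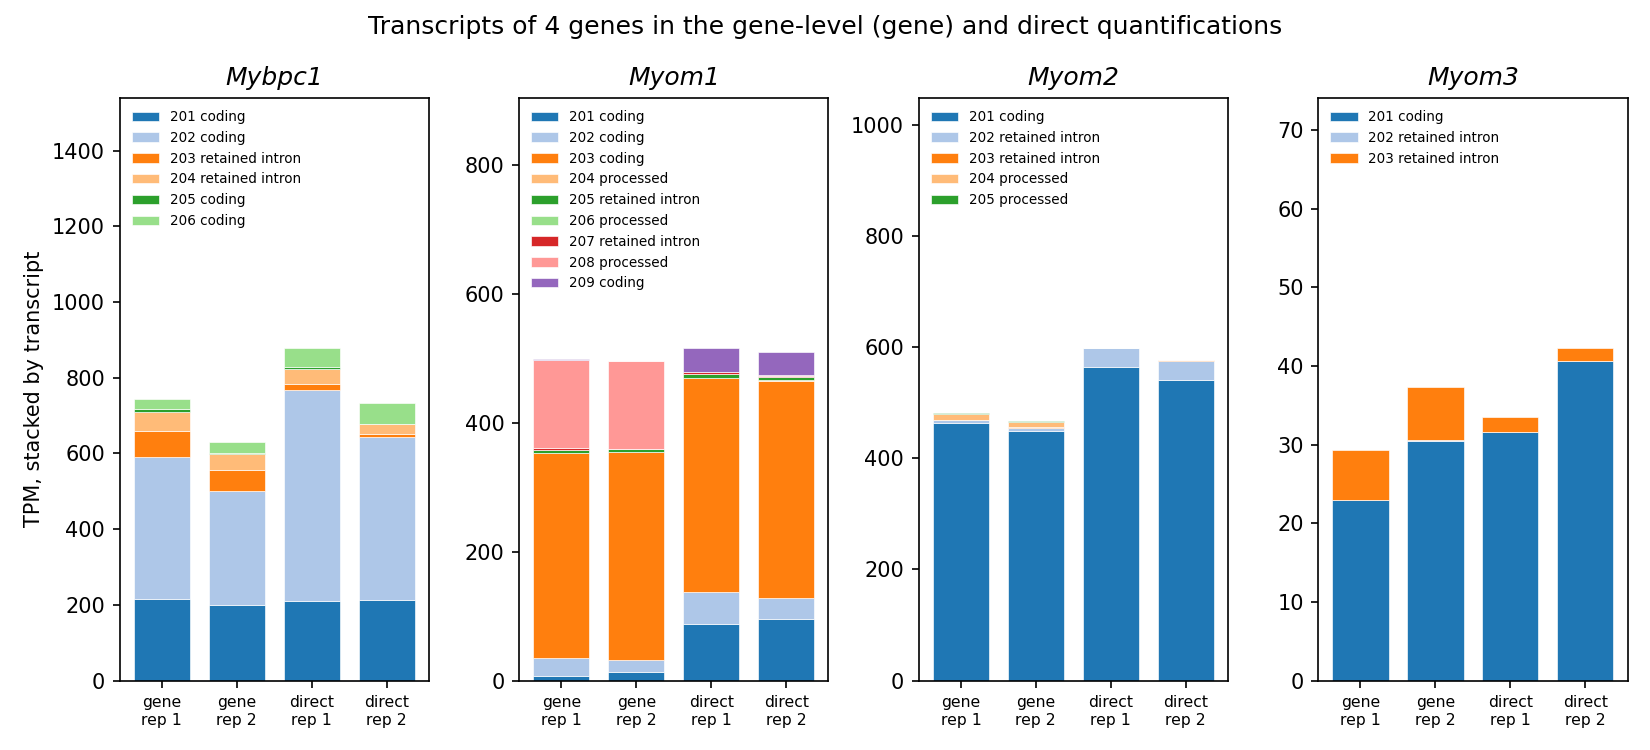
TPM of Mybpc1, Myom1, Myom2 and Myom3, each on its own axis, stacked by annotated transcript, for replicates 1 and 2 in the gene tables (gene) and the direct quantification (direct). The block of Myom1-208 at 138 and 136 TPM is seen in the gene tables alone, and Myom1-201 is wider in the direct quantification.

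**Figure D3:**
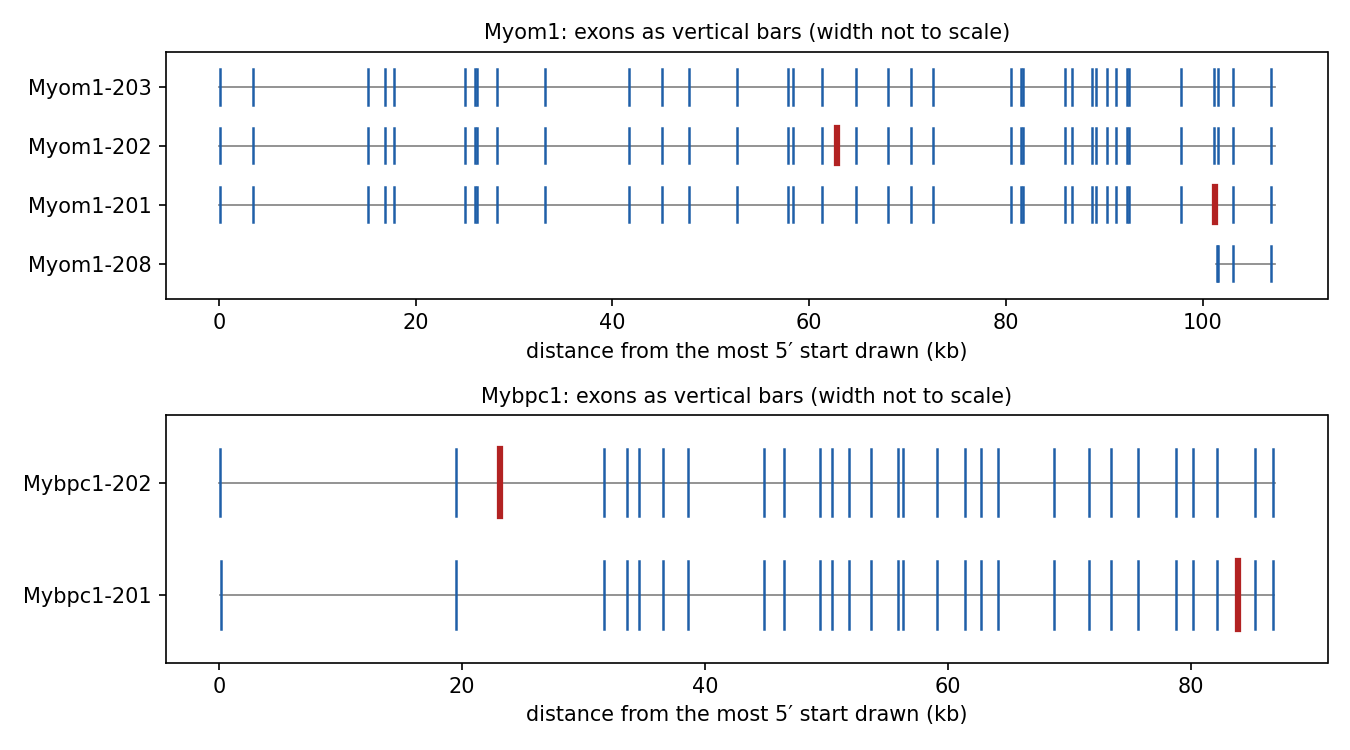
Exons of named transcripts of Myom1 (top) and Mybpc1 (bottom) as vertical bars at their distance in kb from the most 5′ start drawn, with introns as lines and bar width not to scale. Red bars mark internal exons found in 1 full-length coding transcript alone, the EH exon of Myom1-202, the upstream 23-base exon of Myom1-201 and the 42-base and 59-base exons of Mybpc1. Myom1-208 covers the 3′ end alone.

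Between the libraries none of the 6 genes that could be compared differed by as much as 1.5-fold. A gene was compared where its counts summed to at least 20, which Mybphl and Mybpc3 did not reach. Of 15734 genes compared, 7.85% were at least 1.5-fold higher in replicate 2 and 5.65% at least 1.5-fold lower, so a count of 0 among 6 genes is near that background. Those were 1235 and 889 genes with TMM scaling, 1796 and 638 with library totals and 2385 and 494 with spike-in totals. Library totals moved the median log2 ratio of all genes by 0.13 and spike-in totals by 0.22 from its TMM value of 0.01.

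With TMM scaling Mybpc1 differed most, with a log2 ratio of replicate 2 over replicate 1 of -0.40 (95% counting interval -0.41 to -0.38). Mybph followed at -0.25 (-0.28 to -0.22), Myom2 at -0.20 (-0.22 to -0.19), Myom1 at -0.17 (-0.18 to -0.15) and Mybpc2 at -0.15 (-0.16 to -0.14). Of the 6 ratios, that of Myom3 alone was above 0, at 0.21 (0.16 to 0.27). TPM is scaled differently from these counts, and Mybpc2, Ttn and Ckm had a slightly higher TPM in replicate 2 with a ratio below 0. The median of the 6 was -0.18, and 5 were below 0. The intervals are Clopper-Pearson, cover counting error only and hold no spread between animals. With library totals and with spike-in totals Myom3 lay furthest from 0, at 0.34 and 0.43, against -0.27 and -0.18 for Mybpc1. The sign was kept under all 5 scalings for 3 genes, Mybpc1, Mybph and Myom3. With spike-in totals Mybpc2, Myom1 and Myom2 turned to 0.07, 0.06 and 0.02, and the median of all genes to 0.23. Changing from TMM to spike-in totals shifts the ratio of every gene by the same amount. The place of these genes below that median could therefore not change.

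The proteins that surround these 8 were set beside them as lists. Of 15 genes of the thick filament and its partners, 3 were at least 1.5-fold higher in replicate 2 and 0 lower, with a median log2 ratio of -0.08: Myh7 at 0.70, Myh3, the embryonic heavy chain, at 0.66 and Myl2, the slow regulatory light chain, at 0.60. Titin (Ttn), which both families bind, stood at 1963 and 2041 TPM with a ratio of -0.12. Of 10 M-band genes and partners, 1 was higher, Fhl2 at 0.68, and 1 lower, the ubiquitin ligase Trim63 at -0.80, with a median of -0.15. Ckm, the muscle creatine kinase that docks at the M-band, stood at 16657 and 16741 TPM with a ratio of -0.16.

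Of 11 fast-fibre genes 0 were past 1.5-fold in either direction, with a median of -0.08, while of 10 slow-fibre genes 6 were higher in replicate 2 and 0 lower, with a median of 0.59. Mybpc1 encodes the C-protein named the slow form, but it is not a gene of the slow list. Its ratio of -0.40 lay below that of each of the 10 slow genes, the lowest being Myoz2 at -0.16. Which fibres held the Mybpc1 RNA was not measured. The Mybpc1 ratio also lay below the fast-list median, and of the fast-fibre genes Myh1 alone was lower, at -0.57. Myom3, known from fibres of intermediate speed, stood at 0.21, whereas Myh2, the type IIa heavy chain, stood at -0.44 and Myh7 at 0.70. Of the 4 heart genes with enough counts to compare, 1 was at least 1.5-fold higher in replicate 2, Myh6 at 0.64, and 0 lower, with a median of 0.38. Of 6 developmental genes 1 was past 1.5-fold, Myh3, with a median of 0.38. The 3 red-cell genes were all lower in replicate 2 (median -1.16) and 2 of the 3 Schwann-cell genes higher (median 0.93). No endothelial, fibro-adipogenic or macrophage gene of 3 each was past 1.5-fold, and 1 of 3 smooth-muscle genes, Acta2, was higher at 1.19. The part of these cell types in the ratios of the 8 genes was not tested.

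**Figure D4:**
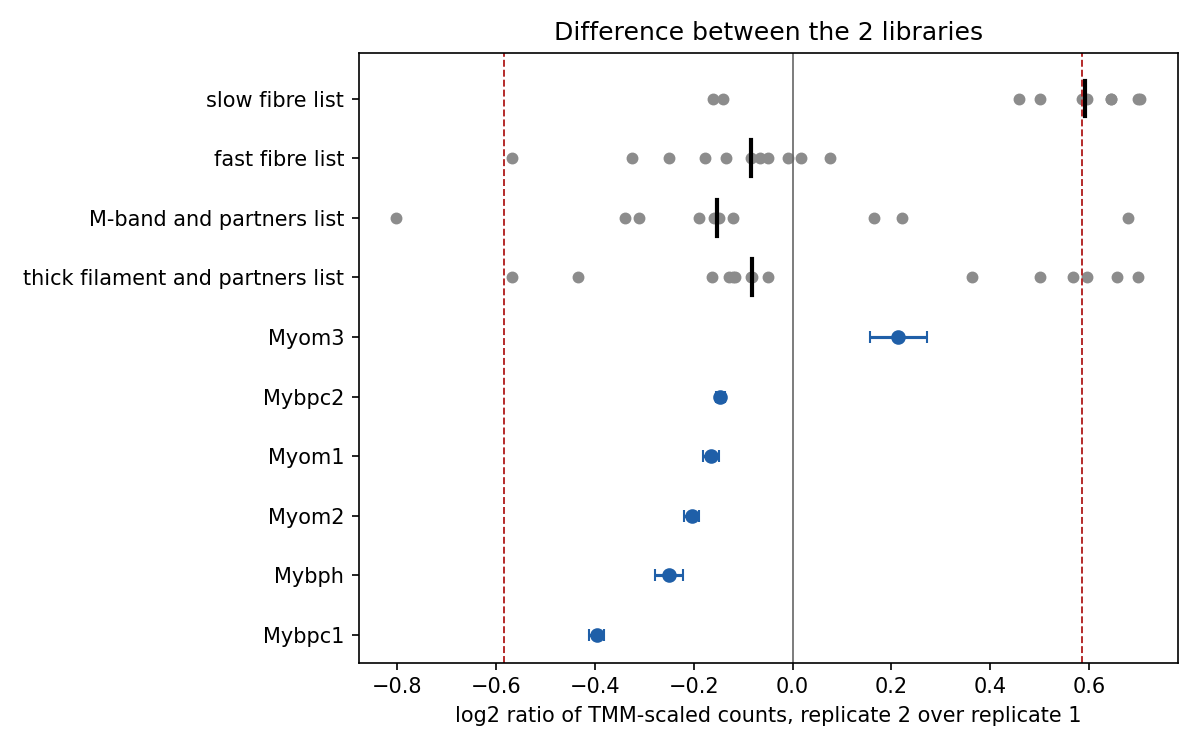
Log2 ratio of TMM-scaled counts, replicate 2 over replicate 1, for the 6 compared genes (blue, with 95% counting intervals) and for each gene of 4 lists (grey, with the list's median as a black bar); the red dashed lines mark 1.5-fold. All 6 blue points lie inside the lines, Mybpc1 at -0.40 is the lowest and Myom3 at 0.21 the highest, and 8 of the 10 slow-fibre genes lie to the right of all 6.

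Several of the genes overlap others, and whether the counting used strand is not given in the sources used here. Myl12a, a non-muscle myosin light chain gene on the opposite strand, overlaps Myom1 by 246 bases and had 5803 and 7882 counts. Adora1, also antisense, overlaps Mybph by 2010 bases and had 30 and 53 counts. The other overlapping genes, 1 each for Mybpc2, Mybpc1, Myom1, Myom2 and Mybphl, had between 0 and 3 counts in either library. The deposited posterior standard deviation of the Myom1 count was 0 in both libraries, and whether reads passed between Myom1 and Myl12a was not tested.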

How the data were processed

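The deposited files of 2 total RNA-seq libraries were used. Per the file headers, each gene or transcript has an expected count, a TPM and a posterior mean TPM with an interval. The transcript tables add the isoform percent, the part of a gene's TPM that a transcript holds, per the file headers. Estimated counts and TPM of a further transcript table, which the authors made directly from the reads, were summed per gene (the direct quantification). The authors' notes beside the files name mm10 and GENCODE M21. Aligner, quantifiers and versions: not given in the sources used here. All 55536 gene IDs were found in GENCODE M21.

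Counts were rounded, and edgeR 4.0.16 supplied TMM factors (0.957 and 1.05). DESeq2 1.42.0 supplied alternative size factors, and neither tool tested genes. Log2 ratios have a prior count of 0.5 and Clopper-Pearson 95% intervals, over genes with a summed count of at least 20. The script was tested on simulated data. Promoters are from RefSeq on GRCm38.p6 and exons from GENCODE M21. A full-length coding transcript is one with at least 90% of the gene's longest coding stretch. The genes and lists were chosen with earlier results of these data known. The text names the 8 genes, list genes (the values of some are not reported here), and transcripts holding at least 10% of a gene by either quantification; other transcripts were chosen after their values were seen. Software was Python 3.11.15 with scipy 1.17.1, numpy 2.4.6, pandas 2.3.3 and matplotlib 3.10.9, and R 4.3.3.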

Additional observations from a re-analysis of the deposited data

How the results depend on the processing

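With spike-in totals 2385 genes were at least 1.5-fold higher in replicate 2 and 494 lower, against 1235 and 889 with TMM, and without the minimum count 4873 were higher and 3707 lower. The Mybpc2 share of C-protein TPM moved to 77.0% with protein-coding transcripts alone, an alternative chosen after seeing the data. The Myom2 share of myomesin TPM, 47.2% in the gene tables, was 51.6% in the direct quantification, 51.6% in counts scaled for depth but not for length (CPM), and 54.5% with protein-coding transcripts alone. Of the 7 neighbouring pairs in the order of the genes, 6 kept it in the direct quantification. Leaving out either library gave Mybpc2 shares of 72.2% to 75.6% and Myom2 shares of 46.7% to 47.7%. With each alternative, 6 genes reached the detection threshold. Direct TPM lay from 1.03 times (Myom1) to 1.24 times (Mybph) the gene-table mean. Mean TPM of single genes moved by more than the SD of the libraries for 8 genes when scaled over nuclear protein-coding genes, which raised each level 2.03-fold to 2.06-fold (Mybpc2 to 3973 TPM), for 5 in the direct quantification and for 3 with posterior means. Log2 ratios of 3 genes changed sign with spike-in totals and of 0 with the other scalings. No paired analysis was possible because the 2 libraries form 1 group. At 2 to 5 counts, depth limits any value for Mybpc3 and Mybphl.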
